A study of Homo sapiens with 24 samples.

Results

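The β-catenin dependence of the Wnt3a response was examined in HepaRG cells, a human line of liver progenitors, as a difference of differences over 12 of the 24 one-colour microarrays of the series. The response to Wnt3a after β-catenin siRNA (CTNNB1siRNA) was set against the response after control siRNA (CTRLsiRNA), and a value below 0 means a smaller rise or a larger fall after β-catenin siRNA. The 12 arrays were those of 4 conditions with 3 replicates each: control siRNA alone, control siRNA with Wnt3a, β-catenin siRNA alone, and β-catenin siRNA with Wnt3a. All 12 cultures were transfected with 80 pmol of siRNA, and Wnt3a was mouse recombinant protein at 200 ng/ml for 72 h. The replicates were independent cultures. The labels do not separate siRNAs against β-catenin by sequence, so an effect of knockdown cannot be told apart from another effect of the siRNA.

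Wnt3a binds Frizzled and LRP5/6 receptors and stops the destruction complex from marking β-catenin for degradation. β-catenin then enters the nucleus and acts with TCF/LEF factors on target genes, among them feedback inhibitors of the pathway such as AXIN2 and RNF43. In liver, β-catenin signals are known for progenitor growth and for the pericentral gene program, and Wnt ligands for the activation of matrix-producing cells.

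Every array held 62976 spots for 50683 probes, and between 58.3% and 66.5% of the spots were well above background on the 12 arrays. The control siRNA with Wnt3a replicate 1 array had the highest share. Levels are log2 intensity relative to the 75th percentile of the array. The number of arrays limits the precision, and the median standard deviation between replicates lay between 0.12 and 0.15 for the 4 conditions. After the filter on dim probes 23998 genes were tested, 15761 of them with a symbol.

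CTNNB1, the gene for β-catenin, had levels of 3.35, 3.37 and 3.51 after control siRNA and 3.39, 3.62 and 3.67 with Wnt3a added. After β-catenin siRNA the levels were 0.26, 0.35 and 0.52, and with Wnt3a 0.33, 0.52 and 0.77. The 6 arrays with β-catenin siRNA all lay below the 6 with control siRNA. The log2 fold change was -3.03 without Wnt3a (adjusted p = 8.66e-08 from limma) and -3.02 with Wnt3a (adjusted p = 9.18e-08 from limma). CTNNB1 was 1 of 4246 genes called between the siRNAs without Wnt3a (17.7% of the genes tested) and of 4016 with Wnt3a (16.7%), which became 6577 and 6145 in a model blocked by replicate number. The difference of differences for CTNNB1 was 0.02 (95% confidence interval -0.33 to 0.36).

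The difference in response was called for 37 of 23998 genes at a Benjamini-Hochberg adjusted p under 0.05 from limma, which is 0.154% of the genes tested. Of these, 33 had a difference below 0 (0.138%) and 4 above 0 (0.0167%). CTHRC1, PI15 and 1 transcript without a symbol, all below 0, passed the filter through control siRNA arrays alone. With a filter on all 12 arrays the count was 34. At an unadjusted p under 0.05 the number was 1677. With Wnt3a, 771 genes were called higher (3.21%) and 1167 lower (4.86%) after control siRNA, and 402 higher (1.68%) and 654 lower (2.73%) after β-catenin siRNA. These responses share their arrays with the difference, which is made from them. With the replicate block the 1938 and 1056 genes called in all became 3498 and 2456, and with all 24 arrays in 1 model 520 and 10, of which 51.7% and 90% were higher. Scaled to spike-in probes, the share of calls that were higher moved from 39.8% to 77.8% with control siRNA and from 38.1% to 7.86% with β-catenin siRNA, and 16 genes were called in the difference, all below 0. Singly, control siRNA replicate 1 and control siRNA with Wnt3a replicate 2 moved the first response to 1071 and 1141. For the second, the count was 664 without control siRNA replicate 1, 172 and 347 without β-catenin siRNA replicates 1 and 3, and 306, 404 and 1900 without β-catenin siRNA with Wnt3a replicates 1, 2 and 3.

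The count of 37 depended on the model and on single arrays. With the replicate number, which is also the slide, as a block, 154 genes were called (0.642%), and all 37 were among them. Of the 154, 116 were below 0 and 38 above, so the share above 0 was 24.7%, against 10.8% of the 37. With all 24 arrays of the series in 1 model the count was 4. It was 0 without replicate 1, 2 or 3 of all 4 conditions. Left out singly, control siRNA replicate 1, β-catenin siRNA replicate 1 and β-catenin siRNA with Wnt3a replicate 2 each gave 0 genes, and control siRNA with Wnt3a replicate 2 gave 1. The count was 3 without β-catenin siRNA replicate 2, 14 without β-catenin siRNA replicate 3, 16 without control siRNA with Wnt3a replicate 3, 17 without control siRNA replicate 3 and 22 without control siRNA with Wnt3a replicate 1. The direction of the 21 called genes named here was kept in every alternative that gave a value, but not the call. CTHRC1 and PI15 had none with the filter on all 12 arrays.

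**Figure D1:**
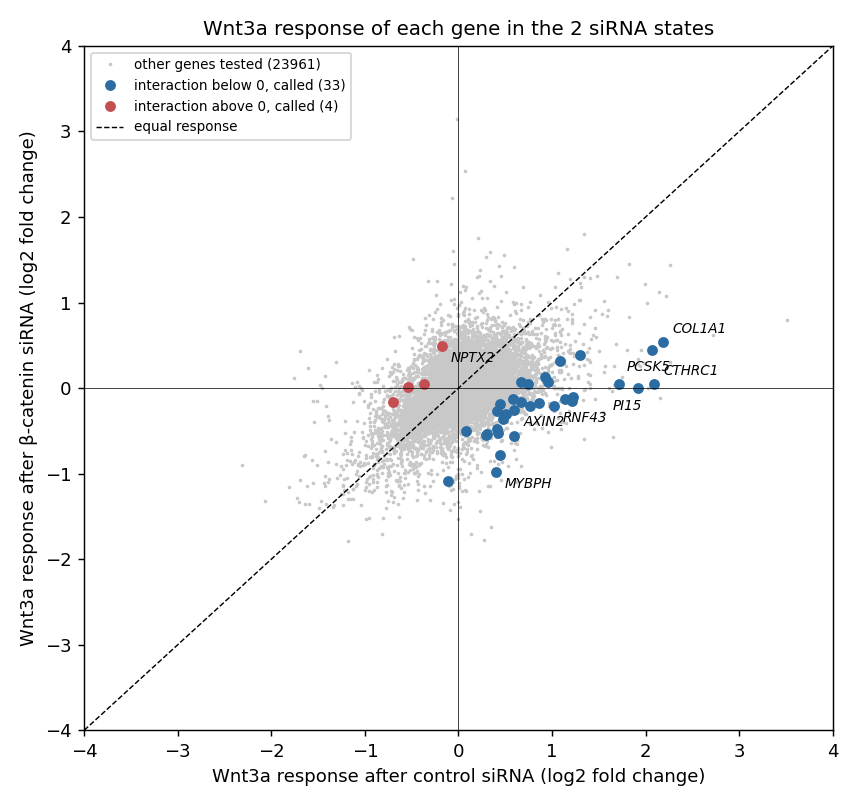
Log2 fold change with Wnt3a after control siRNA on the horizontal axis and β-catenin siRNA on the vertical axis for the 23998 genes tested, each a mean of 3 arrays against 3, with the dashed line at equal responses. The 33 called genes with a difference below 0 (blue) lie to the lower right of the line, with COL1A1 at 2.19 and 0.54, and the 4 with a difference above 0 (red) lie to its upper left.

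Feedback genes of the pathway showed the loss in a pair of members. RNF43, a ubiquitin ligase that removes Frizzled receptors, had levels of 1.00, 1.08 and 0.80 after control siRNA and 1.92, 1.92 and 2.12 with Wnt3a. After β-catenin siRNA its levels were 0.33, 0.24 and 0.32, and with Wnt3a -0.15, 0.12 and 0.30. The Wnt3a arrays were thus above the others only with control siRNA. RNF43 rose by 1.02 with control siRNA (adjusted p = 0.000425), against a response of -0.21 with β-catenin siRNA (adjusted p = 0.376). This made a difference of -1.23 (standard error 0.16, adjusted p = 0.0139 from limma), and -1.40, -0.95 and -1.34 within replicates 1, 2 and 3.

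AXIN2, a scaffold of the destruction complex, had levels of 0.06, 0.14 and -0.04 after control siRNA and 0.68, 0.76 and 0.51 with Wnt3a. With β-catenin siRNA they were 0.15, 0.10 and 0.26, and with Wnt3a -0.20, -0.03 and -0.03. The 3 arrays with control siRNA and Wnt3a were above the 9 others. The difference was -0.85 (standard error 0.12, adjusted p = 0.0238 from limma).

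The 10 tested members of the 16 Wnt feedback genes had a median difference of -0.14, against 0.01 over all genes tested, and 2 were called, both below 0, against 0.138% of all genes. At an unadjusted p under 0.05 there were 5 of the 10, against 1677 of 23998 over all genes. NKD1 was among them, and so was APCDD1, whose difference was above 0. The list median was -0.06, -0.16 and -0.20 within replicates 1, 2 and 3. NKD2, an inhibitor that binds Dishevelled, had a difference of -0.52 (adjusted p = 0.135), with a Wnt3a response of 0.70 with control siRNA and 0.19 with β-catenin siRNA. Its relative NKD1 was well above background on the 3 arrays with control siRNA and Wnt3a and on no other, and passed the filter through that group alone, so its difference is not read as a loss. ZNRF3, APCDD1, LGR6, SP5, DKK1 and KREMEN1 were not called, with differences between -0.14 for ZNRF3 and 0.64 for APCDD1. NOTUM, LGR5, DKK2, DKK4, TNFRSF19 and WIF1 did not pass the filter.

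Of the 13 TCF/LEF factors and nuclear partners, limma called 0, and 4 had an unadjusted p under 0.05, against 1677 of 23998 over all genes. TCF7, a TCF/LEF factor that is itself a Wnt target, had levels of -2.02, -1.86 and -2.29 after control siRNA and -0.65, -0.65 and -0.68 with Wnt3a. After β-catenin siRNA they were -3.29, -3.10 and -3.23, and with Wnt3a -2.53, -2.71 and -2.97. The 4 groups did not overlap, and the responses were 1.40 (adjusted p = 0.000202) and 0.47 (adjusted p = 0.0747, and 0.0207 with the replicate block). The difference was -0.93 (adjusted p = 0.123), and with the replicate block the adjusted p was 0.0274. LEF1 had a difference of -0.34 (adjusted p = 0.351), with responses of 0.61 and 0.27 (adjusted p = 0.0531 for the latter, and 0.0199 with the block). The list had a median difference of -0.17.

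**Figure D2:**
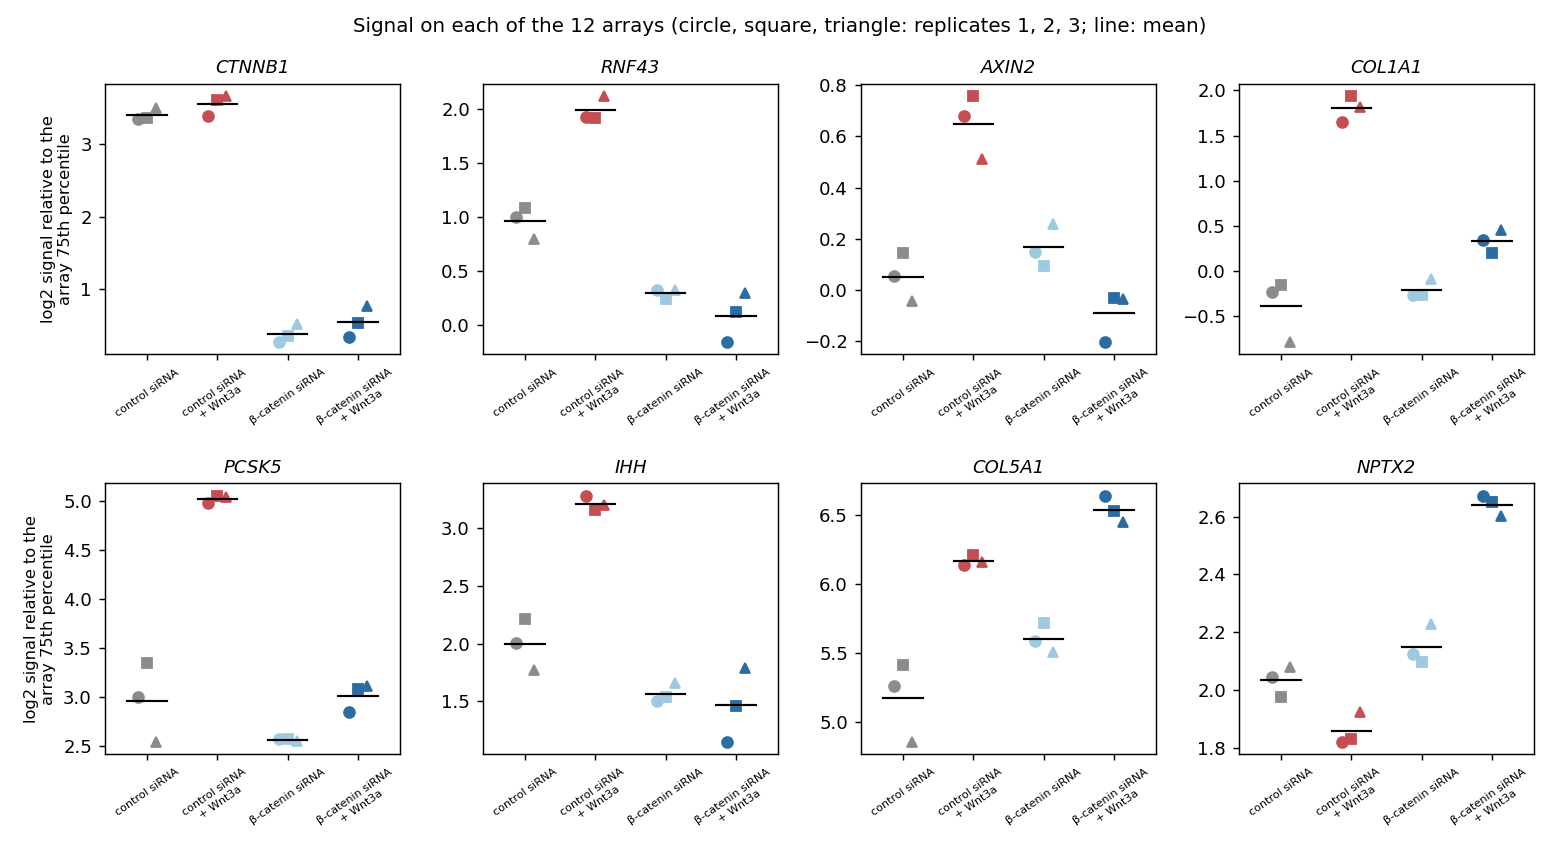
Signal of 8 genes on the 12 arrays, in log2 units from the 75th percentile, with circles, squares and triangles for replicates 1, 2 and 3 and lines for the mean of 3. RNF43, AXIN2, COL1A1, PCSK5 and IHH are highest with control siRNA and Wnt3a, COL5A1 is higher with Wnt3a under both siRNAs, and NPTX2 is highest with β-catenin siRNA and Wnt3a.

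Promoters of the called genes were searched for the TCF/LEF core, TCAAAG or CTTTGA on the other strand, in the RefSeq window of 300 bases around the start (GRCh38.p14). Of the 37 genes, 21 had a promoter in the table. The letters were present in 2 of the 21 (9.52%), EDN1 and RBKS, and in 1180 of 12224 tested genes with a promoter (9.65%). The longer ATCAAAG, which contains the core, was in 0 of the 21 and in 205 of the 12224 (1.68%). A match is a description of the letters and no evidence of binding. The 2 windows below are shown because EDN1 holds the core, in capitals, at -219 from the start, while RNF43, the called feedback gene with a window in the table, holds none. The EDN1 window is chr6:12287769-12288068 on the plus strand and the RNF43 window chr17:58417485-58417784 on the minus strand, both written 5′ to 3′.
EDN1: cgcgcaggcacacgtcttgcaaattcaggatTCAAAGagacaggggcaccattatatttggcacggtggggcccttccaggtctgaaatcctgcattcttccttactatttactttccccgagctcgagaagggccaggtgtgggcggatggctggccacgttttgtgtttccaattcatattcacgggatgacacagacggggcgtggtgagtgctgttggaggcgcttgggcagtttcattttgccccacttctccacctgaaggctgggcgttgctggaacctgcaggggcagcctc
RNF43: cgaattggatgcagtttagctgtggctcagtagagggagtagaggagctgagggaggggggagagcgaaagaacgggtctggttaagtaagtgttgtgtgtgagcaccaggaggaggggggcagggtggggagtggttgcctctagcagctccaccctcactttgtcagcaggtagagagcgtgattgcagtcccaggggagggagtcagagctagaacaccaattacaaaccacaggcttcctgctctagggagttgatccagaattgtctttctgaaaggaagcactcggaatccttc

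Matrix genes were among the called genes with the largest differences. COL1A1, a chain of type I collagen, had levels of -0.23, -0.15 and -0.79 after control siRNA and 1.65, 1.94 and 1.81 with Wnt3a. After β-catenin siRNA they were -0.27, -0.27 and -0.09, and with Wnt3a 0.35, 0.20 and 0.46. The Wnt3a arrays lay above the untreated ones under both siRNAs, by 2.19 with control siRNA (adjusted p = 4.87e-05) and by 0.54 with β-catenin siRNA (adjusted p = 0.0647, and 0.0406 with the replicate block). Between them lay a difference of -1.65 (standard error 0.21, adjusted p = 0.0139 from limma), and -1.26, -1.63 and -2.05 within replicates 1, 2 and 3.

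CTHRC1, a secreted protein of matrix-producing cells, was well above background on all 6 arrays with control siRNA and on none with β-catenin siRNA. Its levels were -5.60, -5.27 and -5.72 after control siRNA and -3.52, -3.35 and -3.44 with Wnt3a. With Wnt3a it was at least 5.18-fold higher after control siRNA than after β-catenin siRNA. At-least folds set the mean of the brighter group against the detection limit of the dim arrays, and are a description for genes that passed the filter through the control siRNA arrays alone. The fitted difference, -2.04 (adjusted p = 0.0139), rests on values at or near the detection floor after β-catenin siRNA, and over the alternatives it lay between -2.32 and -0.51. LUM, the collagen-binding proteoglycan lumican, had a difference of -0.59 (adjusted p = 0.0427) with a response of 0.67 with control siRNA and 0.07 with β-catenin siRNA.

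All 9 tested fibrillar collagens had a difference below 0, with a median of -0.42, and 1 was called, against 0.138% of all genes. Over all genes tested 11347 of 23998 were below 0. Within replicates the median was -0.75, -0.03 and -0.48, so replicate 2 gave nearly none of it. COL1A2 was near background, with 2 of 3 arrays above it in each β-catenin siRNA group, and passed the filter through the control siRNA arrays alone. The count below 0 and the medians of the 9 are therefore a description only. COL1A2 had a difference of -1.35 (adjusted p = 0.266 from limma). Over the alternatives, left-out arrays among them, it ranged from -1.71 to -0.37, with a value of -0.83 without replicate 3. The difference was for COL3A1 -0.96 (adjusted p = 0.552, with a range from -1.45 to -0.36 over the alternatives) and for COL5A2 -0.59 (adjusted p = 0.123). COL5A1 differed from these: its levels were 5.26, 5.42 and 4.86 after control siRNA, 6.14, 6.21 and 6.16 with Wnt3a, 5.59, 5.72 and 5.51 after β-catenin siRNA and 6.64, 6.53 and 6.45 with Wnt3a. It rose by 0.99 and by 0.93 (adjusted p = 0.000604 and 0.00282), a difference of -0.06 (95% confidence interval -0.42 to 0.30).

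Of 33 other matrix and myofibroblast genes, 2 were called, both below 0, against 0.138% of all genes. The median difference was -0.27, against 0.01 over all genes. CTHRC1, 1 of the 2, passed the filter through the control siRNA arrays alone, as did MMP13 through those with Wnt3a, so the count and median are a description only. Within replicates 1, 2 and 3 the median was -0.03, -0.18 and -0.41, so replicate 1 gave nearly none of it. With Wnt3a, 23 of them were called higher with control siRNA and 13 with β-catenin siRNA, with medians of 0.73 and 0.32, against 3.21% and 1.68% of all genes called higher. With the replicate block the counts were 28 and 16, against 1620 and 1115 of all 23998 genes. Called or not, the members ranged from -2.04 to 0.46. Of the 5 fibroblast markers looked at as a check of cell type, COL1A1 and COL1A2 were higher with control siRNA and Wnt3a than with control siRNA alone, and both are among the collagens above. The summed signal of all 5 markers, in units of the 75th percentile, was 1.33, 1.32 and 1.14 after control siRNA, 3.68, 4.32 and 4.04 with Wnt3a, 1.11, 1.14 and 1.18 after β-catenin siRNA, and 1.60, 1.43 and 1.60 with Wnt3a. Most of the sum with control siRNA and Wnt3a came from the COL1A1 probe, and probe signals do not rank genes by abundance. Without and with Wnt3a after control siRNA, the mean level was -1.26 and -1.32 for VIM and -5.19 and -5.76 for PDGFRB, and THY1 stayed at the floor on each array. The part of cell composition in the result was not tested, and in bulk samples fewer cells of a type and less RNA per cell cannot be told apart.

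PCSK5, a proprotein convertase, had levels of 3.00, 3.34 and 2.54 after control siRNA and 4.99, 5.06 and 5.04 with Wnt3a. Under β-catenin siRNA they were 2.57, 2.57 and 2.54, and with Wnt3a 2.84, 3.08 and 3.11. The Wnt3a arrays lay above the untreated ones under both siRNAs, by 2.07 and by 0.45 on average, and the difference was -1.62 (standard error 0.21, adjusted p = 0.018 from limma). The 3 kept probes of the gene differed in size, from -1.72 to -0.21.

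IHH, a hedgehog ligand, had levels of 2.00, 2.21 and 1.77 after control siRNA and 3.29, 3.16 and 3.21 with Wnt3a. With β-catenin siRNA and Wnt3a they were 1.15, 1.46 and 1.78, and the 3 arrays with β-catenin siRNA alone lay within that range. The difference was -1.32 (adjusted p = 0.0345). EDN1, the vasoconstrictor peptide endothelin-1, rose by 0.59 after control siRNA (adjusted p = 0.00479) and fell by 0.56 after β-catenin siRNA (adjusted p = 0.0135), a difference of -1.16 (adjusted p = 0.0139).

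PI15, a secreted peptidase inhibitor, did not exceed background by the scanner's test with β-catenin siRNA on any array. Its levels were -3.65, -3.25 and -3.98 after control siRNA and -1.57, -2.01 and -1.57 with Wnt3a. It was at least 5.94-fold higher after control siRNA than after β-catenin siRNA without Wnt3a and at least 17.9-fold higher with Wnt3a. Since both β-catenin siRNA groups were at the floor, no response could be measured there. The fitted difference of -1.92 (adjusted p = 0.0238 from limma) depends on the floor, with a range from -2.25 to -0.88 over the alternatives.

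A further 8 named genes were called below 0. SEMA5B, a semaphorin, had a response of 1.14 with control siRNA and -0.12 with β-catenin siRNA, and MAP1B, a microtubule-associated protein, of 1.22 and -0.15. SLC38A3, an amino acid transporter, had responses of 0.86 and -0.17, and TUFT1 of 0.76 and -0.21. The level of SLC38A3 was lower with β-catenin siRNA alone, with a mean of -3.22 against -1.89 with control siRNA alone. That of TUFT1 was higher with β-catenin siRNA alone (2.08) than with control siRNA, without (0.93) or with Wnt3a (1.69). MYBPH, a myosin-binding protein, responded by 0.40 (adjusted p = 0.12, and 0.0284 with the block) and -0.98 (adjusted p = 0.00459), so the larger response was the fall after β-catenin siRNA. The same held for IRAG1, with 0.45 (adjusted p = 0.0706, and 0.014 with the block) and -0.78, and SUSD2, with -0.11 and -1.09. ST3GAL5, which makes the ganglioside GM3, rose by 0.42 and fell by 0.52. The differences of these 8 lay between -1.38 for MYBPH and -0.94 for ST3GAL5, with adjusted p from 0.0109 for SEMA5B to 0.048 for MAP1B. With another background correction (normexp) the difference of both MAP1B and IRAG1 was -0.49, and neither was called. The other 16 called genes below 0, outside the rule for named genes, had differences from -1.67 to -0.58.

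Of the 4 genes with a difference above 0, NPTX2 gained a rise after β-catenin siRNA, while ASNS, CALCR and SOCS2 fell after control siRNA and had smaller responses after β-catenin siRNA. Scaled to the spike-ins the 4 differences lay between 0.14 for SOCS2 and 0.39 for NPTX2, and none was called. NPTX2, a neuronal pentraxin, had levels of 2.04, 1.98 and 2.08 after control siRNA, 1.82, 1.83 and 1.92 with Wnt3a, 2.12, 2.10 and 2.23 after β-catenin siRNA, and 2.67, 2.65 and 2.60 with Wnt3a. It rose by 0.49 with Wnt3a after β-catenin siRNA (adjusted p = 0.00184), and the difference was 0.67 (standard error 0.08, adjusted p = 0.0139 from limma). For ASNS, asparagine synthetase, a fall of 0.54 after control siRNA stood against 0.01 after β-catenin siRNA, where its level was already lower without Wnt3a. CALCR, the calcitonin receptor, fell by 0.69 after control siRNA and SOCS2, an inhibitor of cytokine signaling, fell by 0.37, with responses of -0.16 and 0.05 after β-catenin siRNA. With β-catenin siRNA alone CALCR was already lower, with a mean of 1.80 against 2.91 with control siRNA alone and 2.21 with control siRNA and Wnt3a. SOCS2 was higher with β-catenin siRNA alone (2.60) than with control siRNA alone (2.09).

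**Figure D3:**
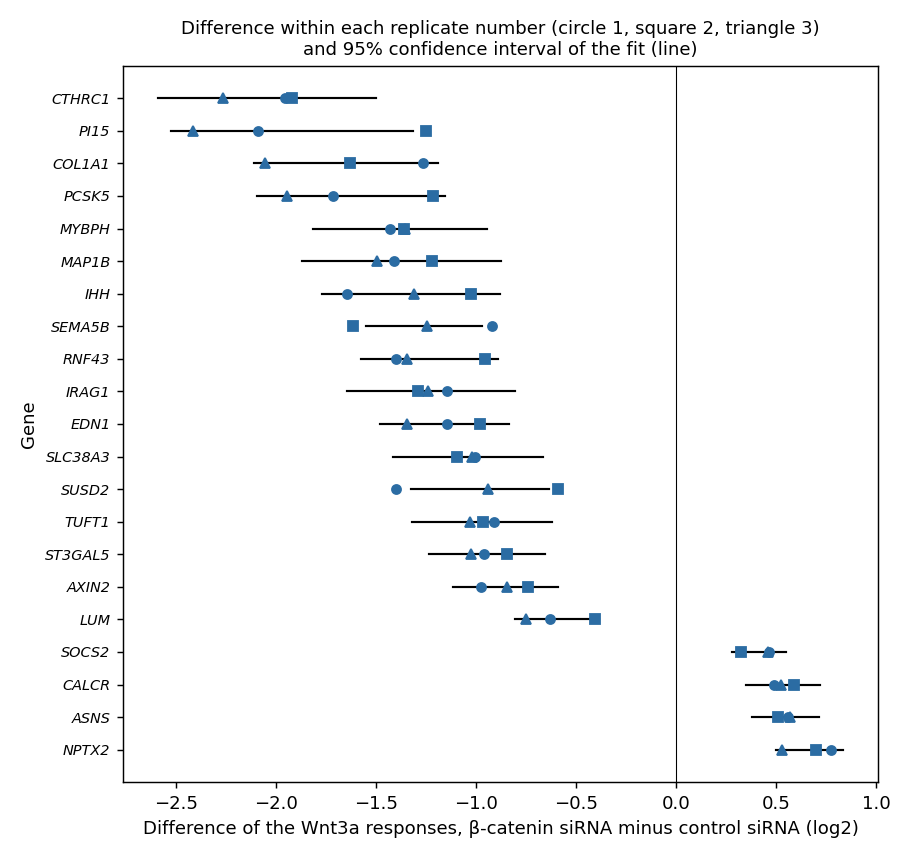
Difference of the Wnt3a responses (β-catenin siRNA minus control siRNA, log2) for the 21 named genes called in the test, with a point for each replicate number and a line for the 95% confidence interval of the fit. The points of each gene lie on the same side of 0, from -2.04 on average for CTHRC1 to 0.67 for NPTX2.

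Genes chosen on arrays outside the difference were followed next. On the 6 arrays of untransfected cells, Wnt3a changed 416 genes (1.73% of the genes tested) by the thresholds of the study, a fold above 1.5 or below 0.7 and an unadjusted p under 0.01, 272 higher and 144 lower. In the direction of the untransfected response, the median log2 response of these genes was 0.64 under control siRNA, 0.37 under β-catenin siRNA, and their median difference was -0.23. Over all genes tested, turned the same way, the median difference was 0.01. Within replicates 1, 2 and 3 the median was -0.05, -0.30 and -0.33, so replicate 1 gave little of it. The loss was -0.31 for the 272 genes higher with Wnt3a and -0.10 for the 144 lower, and for the latter replicate 1 had the opposite sign (0.15).

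Turned to the untransfected direction, 199 of the 416 genes (47.8%) had a lower response after β-catenin siRNA in all 3 replicate numbers. The same held for 17.2% of all genes. In 27 the response was higher in all 3, against 4538 of 23992 genes. The test called 14 of the 416, all with a shift against the untransfected direction. Over all genes it called 32 against that direction and 5 along it. Such a shift is not always a smaller response: MYBPH, 1 of the 32, had responses of 0.40 and -0.98. CTHRC1 and PI15, both among the 14, and EPYC and COL1A2 passed the filter through the control siRNA arrays alone. These counts and the medians of the 416 are therefore a description only. With the filter on all 12 arrays, 394 genes were chosen and the median was -0.19. With the arrays scaled to 7 spike-in probes, an alternative added after the data were seen, the median difference of all genes moved to -0.27. For the same 416 genes the median loss was then -0.38, made of -0.59 for the 272 higher with Wnt3a and 0.18, a gain, for the 144 lower. Chosen anew on that scale, 1852 genes had a median of 0.26.

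**Figure D4:**
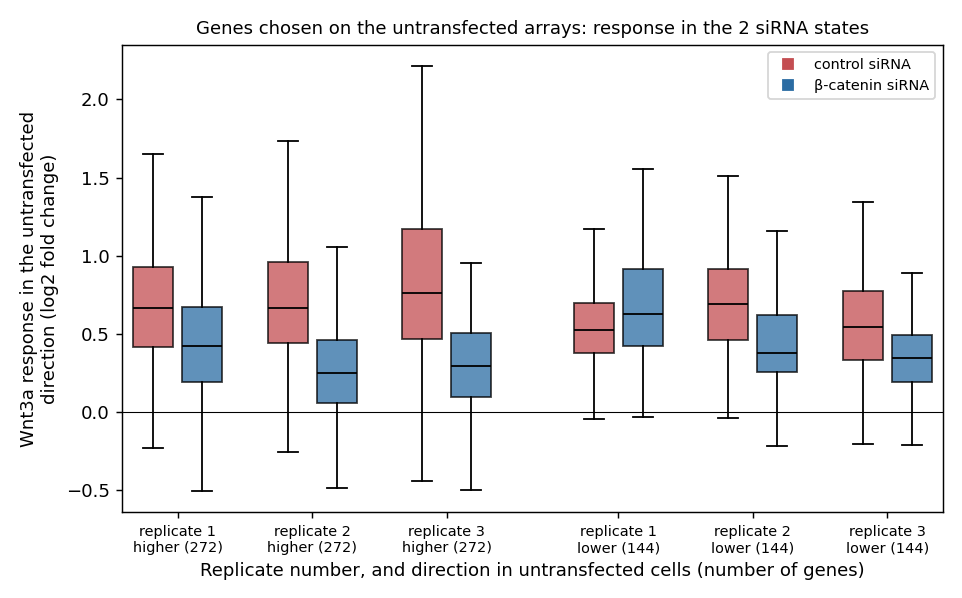
Wnt3a response, as log2 fold change in the direction seen in untransfected cells, of the 272 genes higher and 144 genes lower there, for each replicate number after control siRNA (red) and β-catenin siRNA (blue). Boxes show the quartiles and the median, and whiskers reach the last value within 1.5 times the box. The blue medians are below the red ones in all sets but the lower genes of replicate 1.

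Of the 10 largest rises of that selection, 2 were called in the difference, PCSK5 and PI15, against 0.154% of all genes. An unadjusted p under 0.05 was found for 10, against 1677 of 23998 over all genes. PI15 and EPYC passed the filter through the control siRNA arrays alone, so both counts are a description only. IGFL2, an insulin growth factor-like ligand, had levels of 1.49, 2.10 and 0.05 after control siRNA and 4.51, 4.79 and 4.88 with Wnt3a. After β-catenin siRNA they were -2.60, -2.58 and -2.64, and with Wnt3a -1.73, -1.83 and -1.87. The level was thus lower in both states with β-catenin siRNA, and the response was 3.51 and 0.80. The difference of -2.71 was not called (adjusted p = 0.0915) but was with the replicate block (adjusted p = 0.0316). IGFL3 had a difference of -1.95 (adjusted p = 0.219, and 0.0157 with the block), and IGFL1 of -2.10 (adjusted p = 0.148). Both were also lower with β-catenin siRNA alone than with control siRNA alone. The means were -3.07 against 0.94 for IGFL3 and -4.74 against -1.98 for IGFL1. LRRC15, a membrane protein of activated fibroblasts, had responses of 2.26 and 1.44, with a difference of -0.83 (adjusted p = 0.697). With β-catenin siRNA alone LRRC15 was well above background on 1 of 3 arrays, so its response there and its difference depend on the floor. SCG5, a chaperone of a proprotein convertase, had responses of 2.14 and 1.13 and a difference of -1.01 (adjusted p = 0.317). EPYC, a proteoglycan, was at the floor on all 6 arrays with β-catenin siRNA, at least 14.5-fold lower there than with control siRNA when Wnt3a was present. Its fitted difference was -1.70 (adjusted p = 0.0545, and 0.0273 with the block) and depends on the floor.

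Of the 10 largest falls, limma called 0 in the difference (0.154% of all genes), and 3 had an unadjusted p under 0.05 (1677 of 23998 over all genes). PNLIPRP3, 1 of the 3, passed the filter through control siRNA without Wnt3a alone, and its difference depends on the floor. ANKRD2, a muscle ankyrin repeat protein, had levels of -0.45, -0.37 and -0.60 after control siRNA and -1.73, -1.77 and -1.92 with Wnt3a. After β-catenin siRNA they were -0.60, -0.76 and -0.77, and with Wnt3a -1.97, -2.10 and -2.17. It fell by 1.33 and by 1.37 (adjusted p = 5.28e-05 and 0.000232), and the difference was -0.04 (95% confidence interval -0.33 to 0.25). PSCA fell by 1.81 and by 1.16 (adjusted p = 0.000167 and 0.00494), with a difference of 0.65 (adjusted p = 0.531). CYP4B1 had responses of -0.81 and -1.52, with a difference of -0.72 (adjusted p = 0.643).

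Of 27 tested genes that the study names in HepaRG cells, 2 were called in the difference, PI15 and IHH, both below 0, against 0.138% of all genes. With the replicate block 5 were called, against 0.642% of all genes. PI15 passed the filter through the control siRNA arrays alone, so its call adds no support here. The median was -0.24. The study chose some of these genes on these arrays, so their direction is no independent evidence. CD44, a hyaluronan receptor, had responses of 0.48 and 0.09 and a difference of -0.38 (adjusted p = 0.123, and 0.0468 with the block). Its other kept probe had a difference of 0.21, and the mean of both probes gave -0.09. HAPLN1, which links hyaluronan to proteoglycans, had a difference of -0.70 (adjusted p = 0.473), and IGFBP5 of -1.12 (adjusted p = 0.188). The HAPLN1 level itself was lower with β-catenin siRNA, with a mean of -5.88 against -3.12 after control siRNA (adjusted p = 5.35e-06 from limma). With Wnt3a the log2 fold change of HAPLN1 between the siRNAs was -3.46 (adjusted p = 6.92e-07 from limma). With β-catenin siRNA and Wnt3a, HAPLN1 was well above background on 2 and IGFBP5 on 1 of 3 arrays, and over the alternatives the difference of IGFBP5 lay between -1.40 and -0.20. BMP1, a procollagen peptidase, rose by 0.38 and by 0.37 (adjusted p = 0.00405 and 0.0114), a difference of -0.01. MYC had responses of -0.09 and 0.00.

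Lists with no called member included cell growth genes and hepatocyte genes. Of 24 cell cycle genes, 0 were called by limma (9 at an unadjusted p under 0.05, against 1677 of 23998 over all genes) and 23 had a difference above 0, where 11347 of all genes were below 0, with a median of 0.35 and replicate medians of 0.63, 0.07 and 0.24. With Wnt3a, 6 of them were called higher after β-catenin siRNA and 0 after control siRNA (1.68% and 3.21% over all genes). The replicate block gave 7 and 0, against 1115 and 1620 of all 23998 genes. The test of the difference did not call this contrast for any member. The 10 genes for MYC, D cyclins and CDK inhibitors had a median of 0.07. The 20 hepatocyte genes had a median of 0.07, with replicate medians of -0.76, 0.58 and 0.29, and Wnt3a lowered 6 under control siRNA and 1 under β-catenin siRNA (4.86% and 2.73% over all genes). With the replicate block the count was 9 under each siRNA, against 1878 and 1341 of all 23998 genes. The median response of the list was -0.49 and -0.75. The 5 hepatocyte markers were well above background on all 12 arrays, and EPCAM, a progenitor marker, on none. Their summed signal was 396, 363 and 374 after control siRNA, 262, 188 and 254 with Wnt3a, 602, 461 and 576 after β-catenin siRNA, and 278, 381 and 480 with Wnt3a. Pericentral hepatocyte genes under β-catenin (8 tested) had a median of -0.28 and 12 cadherin junction genes of -0.14. Wnt receptors (15 tested), the destruction complex and Dishevelled genes (14) and interferon-stimulated genes (17) had medians of 0.06, 0.02 and 0.06. In these 7 further lists limma called 0 genes, and at an unadjusted p under 0.05 the number was 0 for MYC, D cyclins and CDK inhibitors, 3 for the receptors and 1 for each of the others. Scaling to the spike-ins, which themselves had a difference of 0.28, lowers every difference by that size and turns the positive medians below it to negative.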

How the data were processed

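RNA of 24 HepaRG cultures was measured on Agilent one-colour arrays, read by the authors with Feature Extraction (10.7.3.1 per the labels). Per the file headers, the deposited intensity values are background-subtracted and detrended, with no scaling between arrays. The authors also deposited log2 values for 25443 probes. Differences between arrays matched the scanner values (correlation at least 0.914, slope 0.98), the column medians lay between -0.05 and 0.02, and their exact centring remains unknown. Of 50683 probes, 28174 were given a symbol through RefSeq transcripts.

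Intensities were divided by the 75th percentile of each array, raised to a floor of -6.20 (log2), averaged over unmarked spots, and kept for probes well above background in some condition on each of its 3 arrays. The brightest probe stood for its gene. Of 37 called genes, 12 had several kept probes, with 0 of opposite sign. The model, in R 4.3.3, was a mean per condition by limma 3.58.1 with lmFit, contrasts.fit and a trended eBayes, two-sided. Benjamini-Hochberg adjustment was over all 23998 genes. The model was also run on simulated data drawn with no effect of the replicate number, so that run cannot judge a model without the number. Figures were drawn with matplotlib 3.10.9.

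The replicate number is also the slide, and each condition kept its position on the slides. Deviations from the condition means correlated between 0.28 and 0.61 in all 18 same-numbered pairs of arrays, so the numbers paired the samples. The main model leaves the numbers out, since the methods name no pairing, so calls and missing calls in the report rest on a model without them, and the report gives values with the replicate block for the counts and for the printed calls of named genes that it changes.

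Named genes were CTNNB1, up to 15 called genes with a symbol at each end, called members of 13 gene lists, any tested member of 4 of them, and the 10 largest rises and falls in untransfected cells. Members and lists were chosen with earlier results of these data known. The selection on untransfected arrays was first run with a floor taken over 18 arrays, which gave 407 genes, and then with the floor of the 12 arrays, which gave the 416 reported. The change was made after the first outcome was seen, so that 1 floor served all values.

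Alternatives were the replicate block, all 24 arrays, other scalings and background corrections, no filter, no moderation, the deposited values, the thresholds of the study, and each array or replicate number left out. Promoters are from RefSeq.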

Additional observations from a re-analysis of the deposited data

Results flagged for a closer look

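The response to Wnt3a differed between the siRNAs by the direct test of the difference, limma with an adjusted p under 0.05, for 21 genes named by the rule. The difference was -2.04 for CTHRC1, -1.92 for PI15, -1.65 for COL1A1, -1.62 for PCSK5, -1.38 for MYBPH, -1.37 for MAP1B and -1.32 for IHH. It was -1.26 for SEMA5B, -1.23 for RNF43, -1.22 for IRAG1, -1.16 for EDN1, -1.04 for SLC38A3, -0.98 for SUSD2 and -0.97 for TUFT1. For ST3GAL5 it was -0.94, for AXIN2 -0.85 and for LUM -0.59. Above 0 were SOCS2 with 0.42, CALCR with 0.54, ASNS with 0.55 and NPTX2 with 0.67. The values for CTHRC1 and PI15 rest on the detection floor, and those of MAP1B and IRAG1 were both -0.49 with another background correction.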

How the results depend on the processing

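The fall of CTNNB1 kept its direction and call under all alternatives run. The direction of the 21 called genes was kept in all that gave a value (none for CTHRC1 and PI15 with the filter on all 12 arrays), and their calls were often lost. The count of 37 became 154 with the replicate block, 4 with all 24 arrays, 24 with no filter on dim probes (41258 genes tested), 20 with the deposited values (20045 genes tested), 16 with scaling to the spike-ins, all of them below 0, and 278 at the thresholds of the study. For the Wnt3a response after control siRNA, the 1938 genes became 3498 with the replicate block, 520 with all 24 arrays and 315 with the spike-ins. After β-catenin siRNA, the 1056 genes became 2456 with the block, 10 with all 24 arrays, 525 with no filter and 229 with the spike-ins. With the spike-ins, the share of calls that were higher moved from 39.8% to 77.8% after control siRNA and from 38.1% to 7.86% after β-catenin siRNA. The median loss of -0.23 became -1.62 with a selection by adjusted p (3 genes) and 0.26 with the spike-ins, where both the scale and the genes changed (1852 chosen). With the same 416 genes on the spike-in scale it was -0.38. With the floor over 18 arrays, the first version run, it was -0.24. The cause of these changes was not tested. Leaving out arrays, singly or a whole replicate number, the count for the difference lay between 0 and 45, the Wnt3a response after control siRNA between 95 and 2159 genes and after β-catenin siRNA between 0 and 1900, the median loss between -0.32 and -0.18, and the CTNNB1 fold change between -3.10 and -2.98 without Wnt3a and between -3.13 and -2.91 with it. A condition left with fewer arrays was assumed to vary like the others. Of the comparisons of called genes with other settings, 159 kept the call and 91 lost it, and with arrays left out 84 kept it and 231 lost it. For uncalled genes the sign changed in 24 and 68 cases and a call was gained in 11 and 3. Genes near the background, such as CTHRC1, PI15, EPYC, LRRC15, IGFBP5 and COL1A2, have a size limited by the detection floor. The scalings to spike-ins and the floor over 18 arrays were chosen after seeing the data.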
